A study of Homo sapiens with 65 samples.

Results

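The members are genes named for nuclear-encoded subunits of the mitochondrial respiratory chain and of ATP synthase. They were picked by a rule on gene names, set with earlier results of these data known. The rule took protein-coding genes whose current symbol starts with NDUFA, NDUFB, NDUFC, NDUFS, NDUFV, UQCR, COX4I, COX5, COX6, COX7, COX8 or ATP5. It also took SDHA, SDHB, SDHC, SDHD and CYC1 and left out the NDUFAF assembly factors. The rule gave 91 of 58735 annotated genes, of which 40 belonged by symbol to complex I, 4 to complex II, 10 to complex III, 17 to complex IV and 20 to complex V. NDUFA4 is counted with complex I by its symbol, although its protein is known as a subunit of complex IV. The rule also takes in genes that are not plain subunit genes. Among these are ATP5IF1, which encodes an inhibitor of ATP synthase, and the joint-symbol genes NDUFC2-KCTD14 and ATP5MF-PTCD1.

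The respiratory chain sits in the inner mitochondrial membrane. Complex I takes electrons from NADH and complex II, which is also succinate dehydrogenase of the citric acid cycle, takes them from succinate. Both pass them through ubiquinone to complex III, cytochrome c and complex IV, where oxygen is reduced. The proton gradient built by complexes I, III and IV drives ATP synthase, complex V. Most subunits are encoded in the nucleus and a few core subunits in mitochondrial DNA, and maturing heart muscle cells, which beat without pause, are known for a dense mitochondrial content. Several complex IV subunits and the c ring of ATP synthase have more than 1 gene, and some of these genes are read mainly in heart and skeletal muscle.

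The RNA came from left ventricular cardioids, heart-like aggregates grown from the human induced pluripotent stem cell line WTC-11, with 8 cardioids pooled in each of 65 libraries. In the genotype arm of 41 libraries, wild-type (WT) cardioids and cardioids lacking the hyaluronan synthase gene HAS2 (HAS2-KO, here KO) were sampled at day 1.5 (5 WT and 6 KO), day 2.5 (6 and 6), day 4.5 (6 and 6) and day 7.5 (3 and 3). In the enzyme arm of 24 libraries, wild-type cardioids left untreated or given hyaluronidase, which degrades hyaluronan, starting on day 1.5 (the HAse1.5 group) or day 2.5 (the HAse2.5 group), were sampled with 3 libraries per group. Untreated and HAse1.5 cardioids were sampled at days 2.5, 4.5 and 7.5, and HAse2.5 cardioids at days 4.5 and 7.5. All groups went through the same left ventricular differentiation. The WT libraries came from WT, WT_TU, cl43_WT_UT and TNT2, and the KO libraries from clones cl4, cl14, cl46 and cl51. Clone cl4 gave 3 of the 6 KO libraries at day 4.5, and at day 7.5 the KO group held only clones cl4 and cl14. In the enzyme arm replicate 1 was line TNNI1, replicate 2 line WT and replicate 3 line TNNT2, so each comparison within a day set the same 3 lines side by side. Libraries of 1 clone are separate cultures of the same cells, and p-values over them measure the spread between these libraries. The labels call the cells cardiac progenitors up to day 4.5 and cardiomyocytes at day 7.5. The summed level of 12 cardiomyocyte marker genes, among them TNNT2, MYH6 and MYL7, ran from 54.9 to 125 CPM (a gene's counts scaled to the library total) at day 1.5. It ran from 58703 to 78791 CPM in the WT, KO and untreated libraries of day 7.5.

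The libraries were 3′ end libraries with 831062 to 3574843 counts each (median 1570954). Of the 91 members, 82 had enough counts to be tested in both arms. Those 82 were 37 of complex I, 4 of complex II, 10 of complex III, 12 of complex IV and 19 of complex V. The targeted gene, HAS2, was not lower in the KO libraries. Its mean was 339 ± 133 CPM in WT and 351 ± 74.5 CPM in KO at day 4.5 (SD, n = 6 each), with a log2 fold change of -0.01 (edgeR quasi-likelihood test, adjusted p = 0.992). The adjusted p was 0.937, 0.77 and 1 at days 1.5, 2.5 and 7.5. Reads from the 3′ end of a transcript can remain where a coding part is deleted, and so these counts do not check the KO label, which is taken from the submitters.

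Some libraries stood apart. The library numbers of the genotype arm fall into 3 runs, here blocks A, B and C. The share of all counts on the 91 members at day 4.5 was 3.63% and 3.73% in the WT libraries of block A, 2.43% and 2.57% in those of block B, and 1.8% and 2.31% in those of block C. The KO libraries of day 4.5 had 2.43% in block A, 2.23% in block B and 1.51% to 1.83% in the 4 libraries of block C. WT held 2 libraries of each block and KO held 1, 1 and 4, so the differences called between KO and WT at day 4.5 are set beside their within-block direction. In 4 other libraries NDUFA4 lay between 26.7 and 50.2 CPM, against 124 to 1430 CPM (median 396) in the remaining 61. They were KO day 1.5 cl14, HAse1.5 day 2.5 replicate 2, untreated day 7.5 replicate 3 and HAse1.5 day 7.5 replicate 3. In each of the 4, between 18 and 24 of the 82 members were more than 1 log2 unit below the mean of the other libraries of the group, with COX7B and NDUFA8 among the 8 lowest in all 4. Mitochondrially encoded transcripts took 0.169% to 0.338% of counts there and 0.0513% to 0.213% in the other 61 libraries. These 4 libraries were picked after their values were seen, and counts that differ without them by over 1.5 times are given below in both forms.

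**Figure D1:**
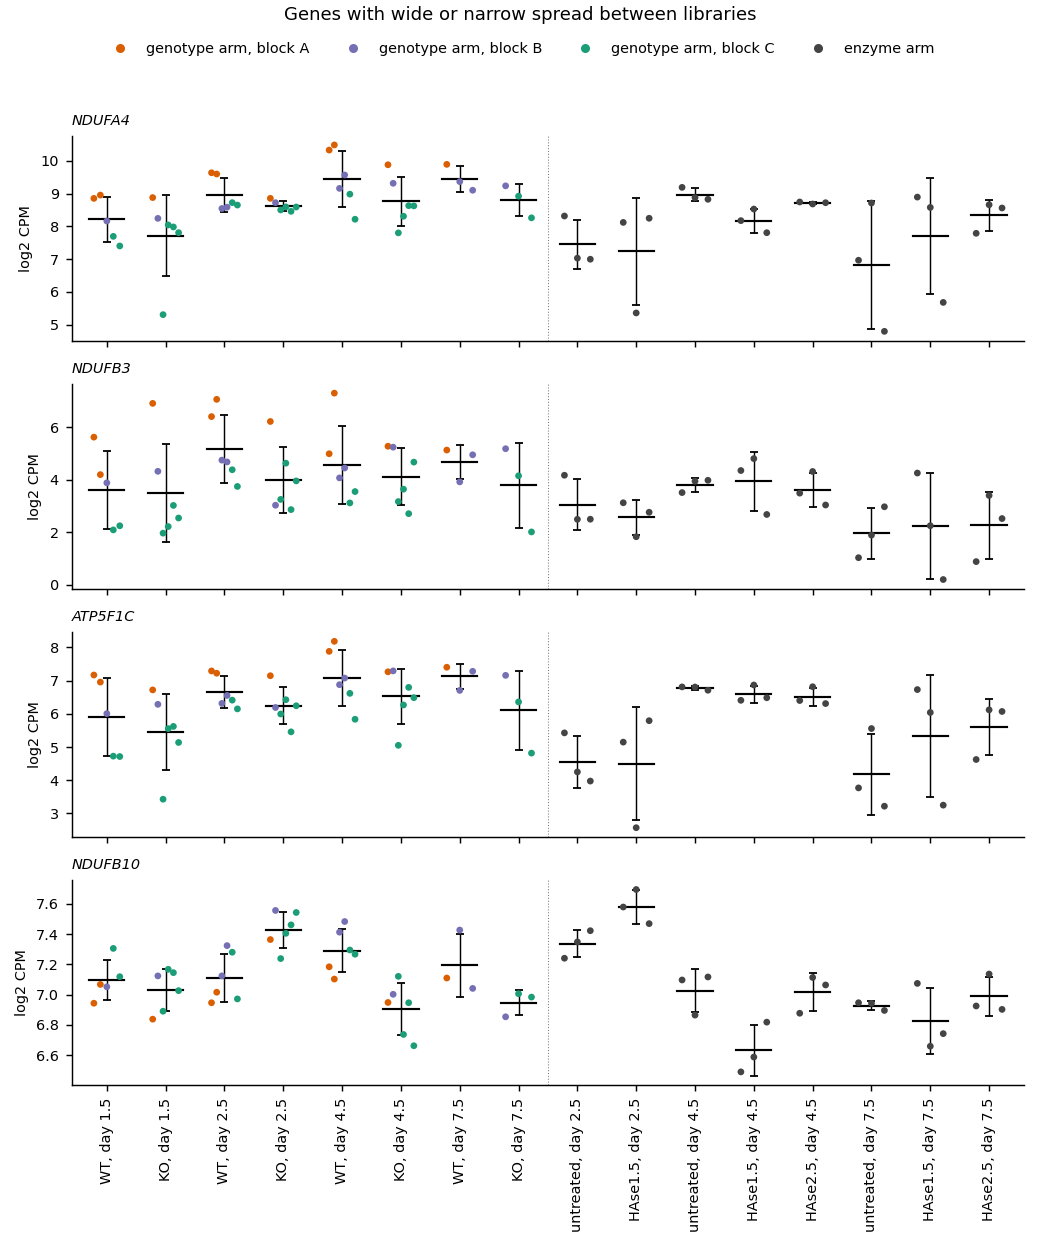
Level of NDUFA4, NDUFB3, ATP5F1C and NDUFB10 (log2 CPM) in each library, by group and day; points are libraries coloured by library-number block, bars are the group mean and whiskers the SD. NDUFA4 is below 100 CPM in 4 libraries, NDUFB3 and ATP5F1C are highest in block A, and NDUFB10 is steady within groups, with KO libraries above most WT libraries at day 2.5 and below nearly all at day 4.5.

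The promoters of 4 members that the results turn on are shown because their genes rose over the same step and differ in the motif letters of their start regions. COX6A1 and COX6A2 encode the same complex IV position, COX6A1 in most tissues and COX6A2 in heart and skeletal muscle. ATP5MC1 is 1 of the genes for the c-ring subunit of ATP synthase, and SDHA encodes the flavoprotein of complex II. Each sequence is 300 bases from RefSeq (GRCh38.p14), 250 before the transcript start and 50 after it, written 5′ to 3′ on the gene's strand. Capitals mark letters matching a searched motif on either strand.
COX6A2, chr16:31428311-31428610, minus strand: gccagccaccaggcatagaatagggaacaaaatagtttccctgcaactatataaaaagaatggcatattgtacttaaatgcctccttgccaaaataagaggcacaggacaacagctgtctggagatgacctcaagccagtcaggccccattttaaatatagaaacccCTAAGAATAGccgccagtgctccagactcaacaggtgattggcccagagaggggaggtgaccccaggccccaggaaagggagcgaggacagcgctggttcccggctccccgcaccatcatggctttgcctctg
COX6A1, chr12:120437863-120438162, plus strand: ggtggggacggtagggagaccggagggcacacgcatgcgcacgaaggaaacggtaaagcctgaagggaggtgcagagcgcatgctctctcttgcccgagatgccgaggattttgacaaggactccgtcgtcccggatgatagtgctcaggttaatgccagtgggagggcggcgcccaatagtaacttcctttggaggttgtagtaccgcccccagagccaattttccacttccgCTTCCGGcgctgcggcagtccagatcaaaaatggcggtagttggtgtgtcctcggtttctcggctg
ATP5MC1, chr17:48892537-48892836, plus strand: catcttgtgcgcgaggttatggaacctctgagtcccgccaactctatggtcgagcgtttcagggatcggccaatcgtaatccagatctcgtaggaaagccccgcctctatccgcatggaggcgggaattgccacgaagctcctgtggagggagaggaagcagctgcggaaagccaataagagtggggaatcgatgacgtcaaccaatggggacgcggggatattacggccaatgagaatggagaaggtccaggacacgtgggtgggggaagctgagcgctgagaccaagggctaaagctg
SDHA, chr5:218070-218369, plus strand: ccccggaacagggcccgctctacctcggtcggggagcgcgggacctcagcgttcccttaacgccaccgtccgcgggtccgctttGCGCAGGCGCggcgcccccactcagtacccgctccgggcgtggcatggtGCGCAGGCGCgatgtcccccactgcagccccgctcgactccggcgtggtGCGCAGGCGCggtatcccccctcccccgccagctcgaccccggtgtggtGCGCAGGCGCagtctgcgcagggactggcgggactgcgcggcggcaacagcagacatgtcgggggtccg

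The motifs searched, on both strands, were a pattern of the NRF1 consensus with 1 free base, a loose pattern with the outer bases of the MEF2 consensus and a free core, CCGGAAG for ETS factors, AAGGTCA for estrogen-related receptors and AGATAA for GATA factors. The COX6A2 window held a match to the loose MEF2 pattern at bases 168 to 177, with a G in its free core. That pattern starts with C, so it passes over strings that start with T, such as ttaaatatag in the same window. The COX6A1 window held an ETS match at bases 235 to 241. The SDHA window held 4 NRF1 matches, and the ATP5MC1 window held none of these letters. A match is a string of letters and not a measured site. Windows were at hand for 71 of the 91 members. NRF1 letters occurred in 17 of 71 members (23.9%) and in 6.98% of 27303 genes with windows. ETS letters occurred in 21 members (29.6%) against 12.2% of genes, and estrogen-related receptor letters in 11 members (15.5%) against 4.8%. Letters of the loose MEF2 pattern occurred in 2 members, COX6A2 and COX7A2 (2.82%), against 3.38% of genes. GATA letters occurred in 6 members (8.45%) against 12.4%. With 1 window per gene, the median GC content was 61% in members and 58.3% over all genes with windows.

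Of all groups, the median level of subunit mRNAs was highest in WT at day 4.5. Levels are given as log2 CPM, computed from library totals with a prior count of 2. In 3′ libraries a CPM is a share of reads and is not divided by gene length. The median over the 82 tested members was 6.93 ± 0.23 at day 1.5 (SD over 5 libraries), 7.16 ± 0.15 at day 2.5 (n = 6), 7.81 ± 0.34 at day 4.5 (n = 6) and 7.66 ± 0.14 at day 7.5 (n = 3) in WT. In KO it was 6.76 ± 0.21, 7.05 ± 0.06, 7.32 ± 0.25 and 7.47 ± 0.09 at the same days. In the enzyme arm at day 4.5 it was 7.45 ± 0.25 in untreated, 7.03 ± 0.14 in HAse1.5 and 7.32 ± 0.11 in HAse2.5 cardioids. At day 7.5 the 3 groups had 7.19 ± 0.27, 7.24 ± 0.17 and 7.38 ± 0.09, and the ranges of the 3 groups overlap. WT at day 4.5 was the group with the highest mean for 42 of the 82 members. Among them were 10 of the 12 tested complex IV genes and 13 of the 19 complex V genes. The share of all genes with their highest mean in that group is not given here. WT held 2 libraries of block A at day 4.5 and 1 at day 7.5. In block B the WT libraries had medians of 7.70 and 7.81 at day 4.5 and 7.74 and 7.50 at day 7.5, which overlap. Over the 16 groups, a member's lowest and highest group means lay a median of 1.43 log2 units apart, against 1.81 over all genes tested in the genotype arm, and 67 of the 82 members spanned more than 1 unit against 87.8% of all genes.

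**Figure D2:**
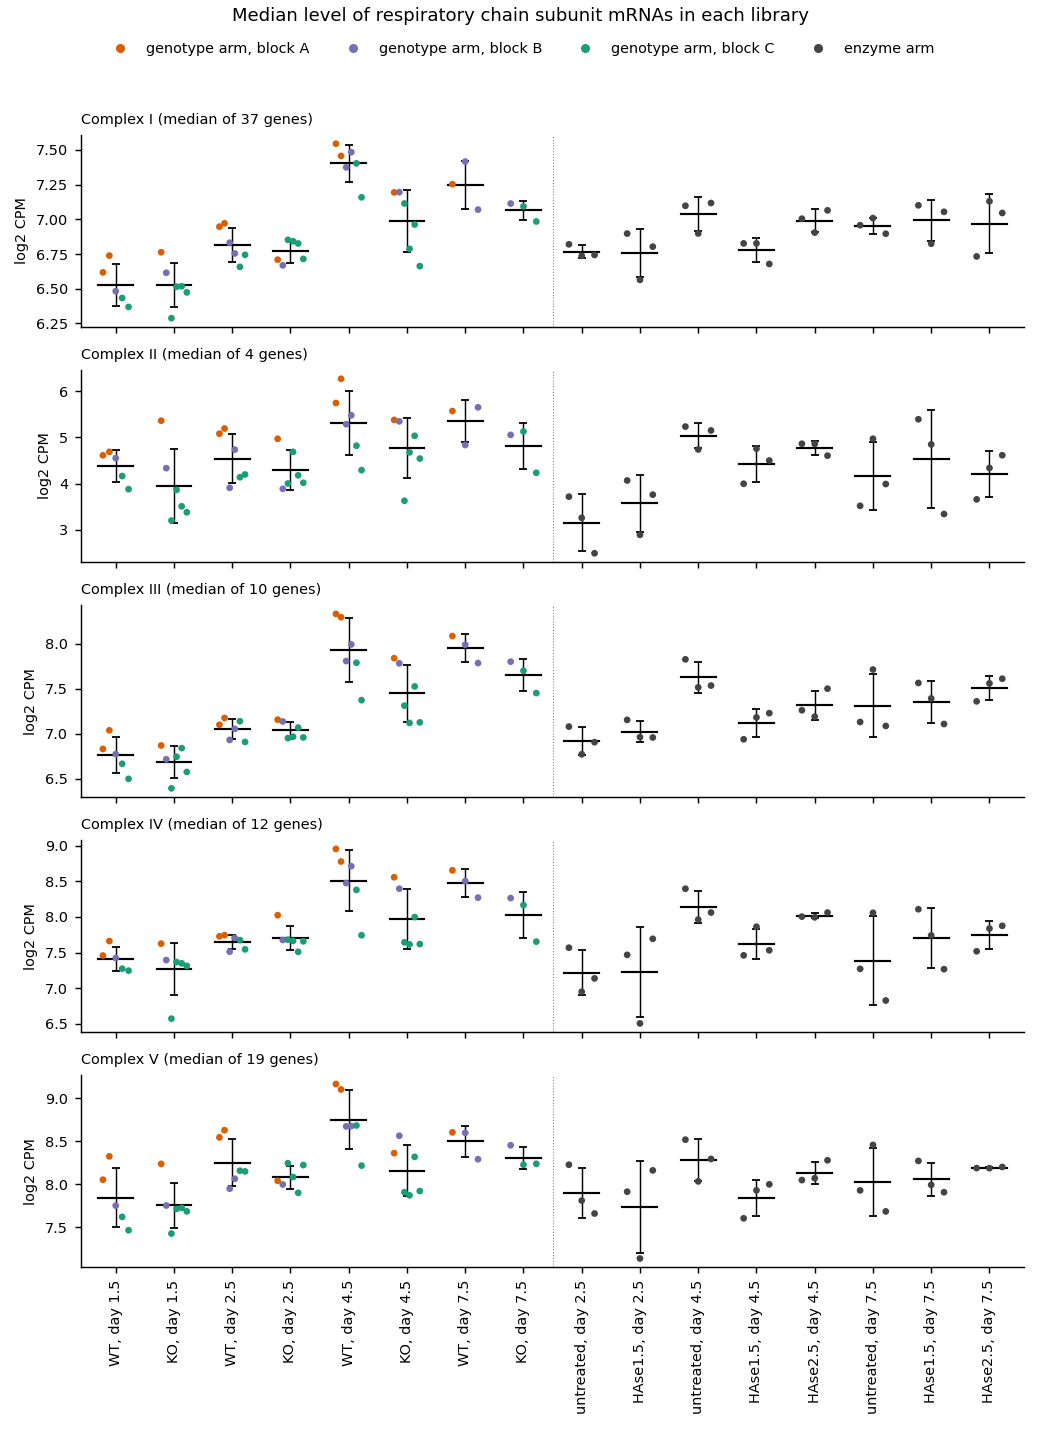
Median log2 CPM of the tested subunit genes of each complex, 1 point per library, by group and day; bars are group means and whiskers the SD. On day 4.5 the KO mean lies below the WT mean and the HAse1.5 mean below the untreated mean in all 5 complexes.

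As a share of all counts, the 91 members took 1.44% ± 0.306 in WT at day 1.5 and 1.63% ± 0.273 at day 2.5. The share was 2.75% ± 0.771 at day 4.5 and 2.33% ± 0.214 at day 7.5. In KO the shares were 1.31% ± 0.276, 1.49% ± 0.0593, 1.86% ± 0.389 and 1.95% ± 0.203. At day 4.5 they were 1.98% ± 0.281 in untreated, 1.4% ± 0.138 in HAse1.5 and 1.75% ± 0.0739 in HAse2.5. The HAse1.5 libraries (1.25% to 1.52%) did not overlap the untreated ones (1.8% to 2.31%) on that day. The WT and KO libraries did overlap.

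**Figure D3:**
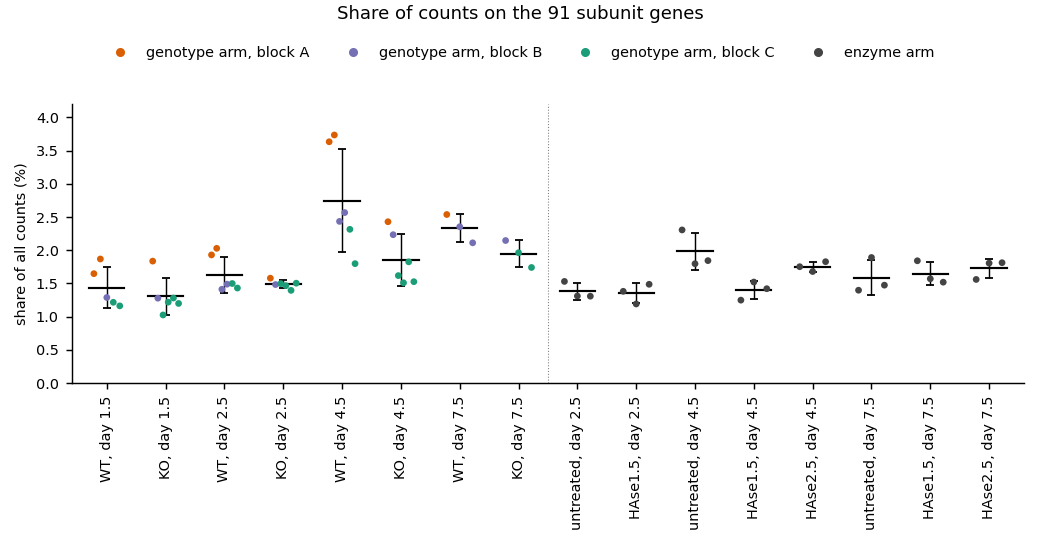
Share of all counts (%) on the 91 subunit genes, 1 point per library, by group and day; bars are group means and whiskers the SD. The 2 block A libraries of WT at day 4.5 lie at 3.63% and 3.73%, above all other libraries.

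From day 2.5 to day 4.5 in WT, 51 of the 82 members rose and 0 fell, at an adjusted p under 0.05 over all 13797 genes of the arm (edgeR quasi-likelihood test). Of all genes, 34.5% passed that threshold in either direction and 18.6% passed it upward. The members' median log2 fold change was 0.75 against 0.03 over all genes. By complex, 21 of 37 complex I genes, 1 of 4 in complex II, 6 of 10 in complex III, 10 of 12 in complex IV and 13 of 19 in complex V rose. In 29 members every day 4.5 library lay above every day 2.5 library, against 8.97% of all genes. The count of members called stayed between 44 and 60 in all 20 alternatives. In bulk cardioids, more cells of a type and more RNA per cell cannot be told apart. All 12 cardiomyocyte markers rose over the same step, with a median log2 fold change of 6.62, and their part in the subunits' rise was not tested.

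Among complex IV genes the muscle isoform COX6A2 (chromosome 16, 31427731 to 31428428) had the largest rise. It had 0 counts in all day 1.5 and day 2.5 libraries of both arms. In WT at day 4.5 it ran from 0.659 to 40.3 CPM (median 14.3), and at day 7.5 it had 48.2, 23 and 77.6 CPM. Summed over the 6 libraries, WT at day 4.5 had 294 counts, at least 101-fold above the level that 3 counts over the day 2.5 group would give. The step passed the test (edgeR, adjusted p = 0.000117). The spread at day 4.5 covered more than an order of magnitude, with cl43_WT_UT lowest. Its partner COX6A1, the isoform of most tissues, was present throughout. COX6A1 went from 78.4 to 133 CPM (median 102) at day 2.5 to 142 to 245 CPM (median 210) at day 4.5 in WT, a log2 rise of 1.02 ± 0.21 (SE; edgeR, adjusted p = 0.000111). No day 4.5 library of WT lay below a day 2.5 library for either isoform.

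**Figure D4:**
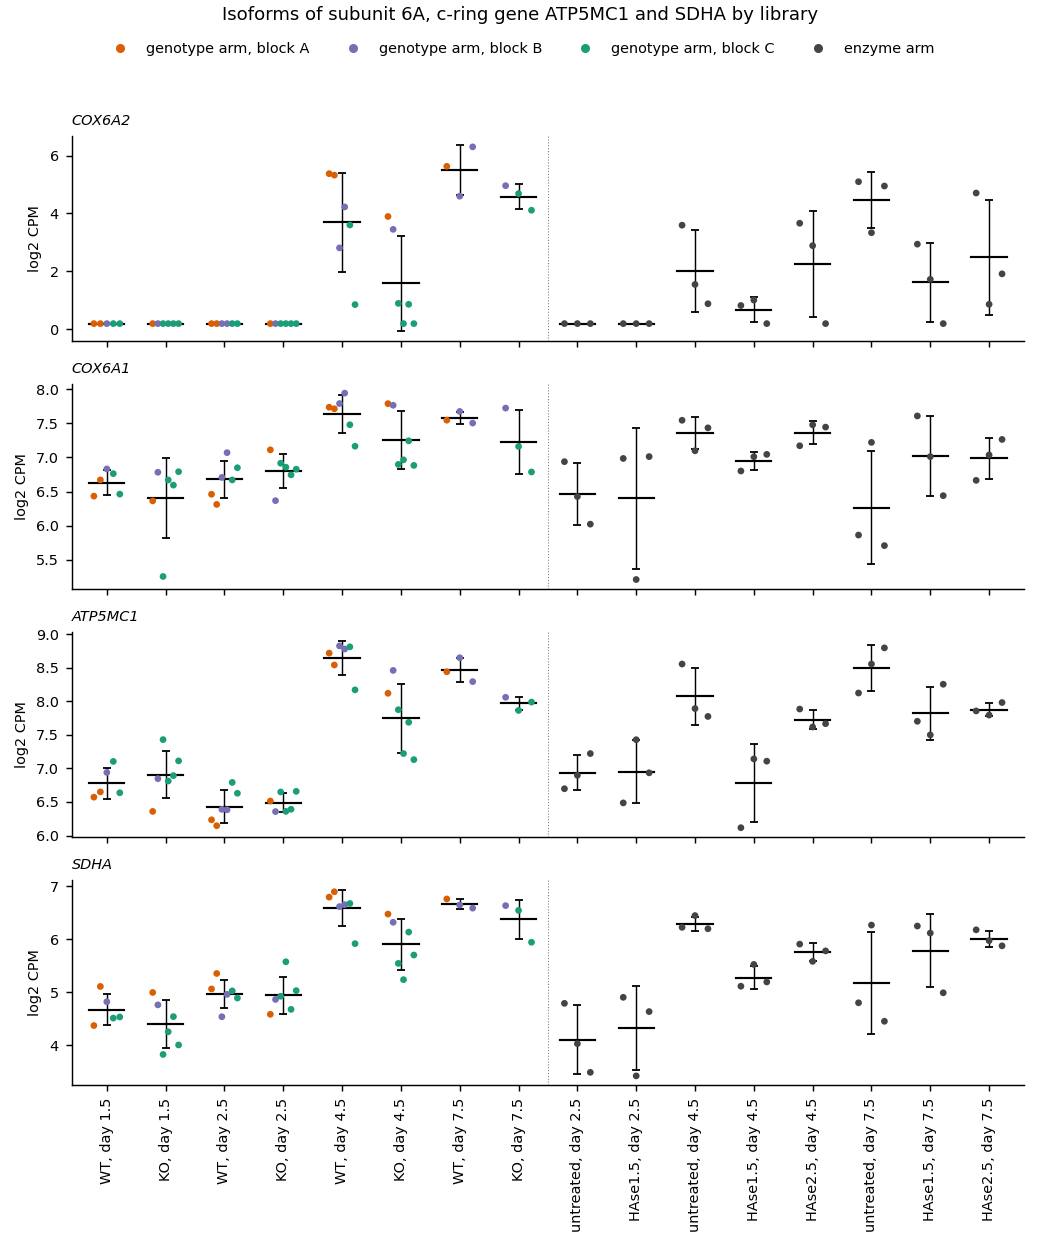
COX6A2, COX6A1, ATP5MC1 and SDHA (log2 CPM) in each library, by group and day; bars are group means and whiskers the SD, and points are coloured by library-number block. COX6A2 has no counts before day 4.5 in either arm, and ATP5MC1 and SDHA rise between day 2.5 and day 4.5 in WT and KO.

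In the other isoform pairs of complex IV, the tissue forms had few or no counts. COX4I2, COX6B2, COX7A1, COX7B2 and COX8C, forms known from lung, testis or muscle, reached at most 4, 5, 1, 1 and 3 counts in any library and were not tested. Their partners carried nearly all the reads. COX6B1, a subunit on the intermembrane side, had 184 to 241 CPM (median 214) in WT at day 2.5 and 398 to 603 CPM (median 503) at day 4.5, a log2 rise of 1.31 ± 0.17 (edgeR, adjusted p = 9.05e-08). COX4I1, an early core-binding subunit, rose by 0.98 ± 0.17 (edgeR, adjusted p = 1.19e-05). COX7B rose by 1.4 ± 0.31, COX8A by 0.83 ± 0.18 and COX7A2 by 0.65 ± 0.18, with adjusted p between 0.000203 and 0.00408 (edgeR). Log2 ratios of isoform pairs were compared between treatments in 36 exact permutation tests, and none passed after adjustment. Tests of 3 against 3 libraries, which include all of the enzyme arm, have a smallest possible p of 0.1 and could not pass. COX4I2 and COX7A1 had 0 counts in 63 and 64 of the 65 libraries, so their ratios mainly follow their partners. For COX6A2 over COX6A1 the KO libraries of day 4.5 lay 1.81 log2 units below WT on average, with an exact two-sided p of 0.0649 and an adjusted p of 0.45 (n = 6 each). The HAse1.5 libraries of day 7.5 lay 3.68 units below the untreated ones, with no overlap. Their exact permutation p was 0.1, the smallest that 3 against 3 allows. Replicate 3 of both groups is among the 4 libraries low in NDUFA4. COX6A1, the partner in this ratio, had its lowest group mean in untreated cardioids of day 7.5 (6.26 log2 CPM).

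In ATP synthase the 3 genes of the c ring, whose mature proteins are alike, differed in their course. ATP5MC1 (chromosome 17, 48892765 to 48895871) had 69.7 to 110 CPM (median 82.6) in WT at day 2.5, 287 to 452 CPM (median 429) at day 4.5 and 346, 400 and 312 CPM at day 7.5. Its rise of 2.27 ± 0.19 log2 units from day 2.5 to day 4.5 was the second largest among the members (edgeR, adjusted p = 2.76e-12). The groups of the 2 days did not overlap. ATP5MC3 had 424 to 637 CPM at day 2.5 and 728 to 2311 CPM at day 4.5 and rose by 1.58 ± 0.31 (edgeR, adjusted p = 6.81e-05). ATP5MC2 had 549 to 673 CPM at day 2.5 and 582 to 800 CPM at day 4.5 and did not pass the test. ATP5MG, the complex V gene with the most reads, rose by 1.06 ± 0.28 (edgeR, adjusted p = 0.00264). ATP5F1C, the central stalk subunit gamma, had the widest span of group means in complex V, 2.95 log2 units, and within WT its block A libraries were the highest on each day. ATP5IF1 encodes the inhibitor that binds ATP synthase when the gradient is lost. It had 344 to 415 CPM (median 376) at day 2.5 and 302 to 476 CPM (median 394) at day 4.5 in WT.

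SDHA was the only complex II gene to rise in WT over this step. It had 22.1 to 39.8 CPM (median 30.7) at day 2.5, 59.3 to 118 CPM (median 100.3) at day 4.5 and 107, 99.1 and 95 CPM at day 7.5. The rise was 1.71 ± 0.23 log2 units (edgeR, adjusted p = 1.45e-07), and the day 2.5 and day 4.5 libraries did not overlap. SDHB, the iron-sulfur subunit, had 8.36 to 33 CPM at day 2.5 and 5.27 to 48.6 CPM at day 4.5, with medians of 15.9 and 16.6 CPM. The membrane anchor SDHC had 91.3 to 171 CPM at day 2.5 and 58.7 to 141 CPM at day 4.5. SDHC was the 1 member that rose from day 1.5 to day 2.5 in WT, by 0.76 ± 0.26 (edgeR, adjusted p = 0.0254). SDHD, the other anchor, had at most 10.4 CPM in any library, which limits what its counts can show.

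In complex III, CYC1 encodes cytochrome c1, and UQCRC1 and UQCRC2 the core proteins. CYC1 had 66.1 to 81 CPM (median 74.3) at day 2.5 and 76.5 to 139 CPM (median 114) at day 4.5 in WT and rose by 0.65 ± 0.16 (edgeR, adjusted p = 0.001). UQCRC1 rose by 1.16 ± 0.18 and UQCRC2 by 1.07 ± 0.22 (edgeR, adjusted p = 1.88e-06 and 0.000114). UQCRB, the complex III gene with the most reads, had 640 to 999 CPM at day 2.5 and 719 to 1485 CPM at day 4.5 and did not pass the test. UQCRHL, a near copy of UQCRH with at most 19.6 CPM, had the widest span of group means in the complex at 2.48 log2 units. Reads of this pair may be split by the authors' counting.

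In complex I, genes of the NADH-oxidising arm and of the membrane arm both rose. NDUFV1, the NADH-binding subunit, had 63.7 to 88.8 CPM (median 64.4) at day 2.5 and 112 to 181 CPM (median 140) at day 4.5 in WT. It rose by 1.09 ± 0.18 (edgeR, adjusted p = 4.38e-06) with no overlap between the days. NDUFS7, which carries the last iron-sulfur cluster, had the largest complex I rise at 1.44 ± 0.2 (edgeR, adjusted p = 1.56e-07). NDUFB9, of the membrane arm, had 192 to 253 CPM (median 224) at day 2.5 and 425 to 618 CPM (median 541) at day 4.5, a rise of 1.28 ± 0.16 (edgeR, adjusted p = 1.81e-08). NDUFS5, the complex I gene with the highest mean log2 CPM, had 399 to 509 CPM at day 2.5 and 387 to 448 CPM at day 4.5. NDUFB3 had the widest span in complex I, 3.21 log2 units, and ran from 7.51 to 157 CPM within WT at day 4.5 alone. NDUFA4L2, NDUFA7 and NDUFC2-KCTD14 reached at most 4, 17 and 0 counts in a library and were not tested, as was ATP5MF-PTCD1 with at most 2.

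The earlier and later steps moved few members. From day 1.5 to day 2.5 in WT, SDHC rose and NDUFS7, ATP5MC1, NDUFB9 and NDUFA9 fell, with 30.1% of all genes called. The log2 changes of the 4 that fell were -0.58, -0.55, -0.49 and -0.42 (edgeR, adjusted p from 0.0188 to 0.0287). With library totals in place of TMM scaling the median of all genes over this step shifted from 0.01 to 0.22, and 12 members rose and 0 fell. The count was 2 without WT day 2.5 WT_TU_R1, 3 without WT day 1.5 cl43_WT_UT and 0 without WT day 1.5 TNT2. In KO over the same step, 4 members rose and 5 fell, against 33.3% of all genes called. ATP5MC2 (0.52), COX5B (0.46), COX8A (0.46) and ATP5IF1 (0.43) rose, and ATP5PD (-0.88), ATP5MC1 (-0.67), UQCRQ (-0.51), NDUFB9 (-0.42) and NDUFS6 (-0.42) fell. With library totals the median of all genes in this KO step shifted from 0.02 to 0.24, and 10 members rose and 1 fell. With the replicate name, which marks the same cell line on each day, as a block, the counts were 14 in WT and 18 in KO over this step. From day 4.5 to day 7.5, 0 of 82 members passed in WT (edgeR), with 6 at an unadjusted p under 0.05 (14% of all genes), 0 by DESeq2 and 2.7% of all genes called. In KO 0 passed, with 7 at an unadjusted p under 0.05 (17% of all genes), 3 by DESeq2 and 6.22% of all genes called, and 12 were called without the block A libraries. With the replicate name as a block, 2 members passed in each genotype over this later step.

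The KO cardioids showed a rise of part of the members from day 2.5 to day 4.5. In KO, 24 members rose and 2 fell, against 30.5% of all genes called in either direction and 15.6% called higher, and the members' median log2 change was 0.32 against 0 over all genes. The difference between the KO and WT steps, tested directly, passed for NDUFB10 alone, and ATP5MC1 and SDHA had adjusted p of 0.115 and 0.558 in that test (edgeR). COX6A2 was again highest, from 0 counts to a median of 0.692 CPM (0 to 13.7). Its summed 45 counts at day 4.5 were at least 14-fold above the level of 3 counts over the day 2.5 group (edgeR, adjusted p = 0.0145). ATP5MC1 rose by 1.37 ± 0.19 and SDHA by 1.03 ± 0.23 (edgeR, adjusted p = 2.88e-07 and 0.000619). NDUFB10 and ATP5IF1 fell, by 0.51 ± 0.12 and 0.43 ± 0.14 (edgeR, adjusted p = 0.000752 and 0.0163). Untreated cardioids of the enzyme arm also rose over this step, with 20 members higher and 3 lower against 23% of all genes called and 12% called higher. The largest rises there were NDUFB5 (2.11 ± 0.53), SDHA (2.01 ± 0.42) and NDUFA8 (1.9 ± 0.67), and NDUFA6 (-0.74), ATP5IF1 (-0.68) and NDUFB10 (-0.44) fell. The untreated count of 23 was 8 without untreated day 4.5 replicate 1, 8 without untreated day 2.5 replicate 2, 14 without untreated day 4.5 replicate 2 and 13 without untreated day 2.5 replicate 3. It was 38 without the 4 libraries low in NDUFA4, which pool the estimate of spread. From day 4.5 to day 7.5 the untreated cardioids had 0 members higher and 3 lower (ATP5MC2 -1.12, UQCRB -0.76, NDUFB4 -0.76), against 6.39% of all genes called. With the line as a block 5 passed. Without the 4 low libraries 1 of the 3, ATP5MC2, remained. That count was 28 without untreated day 7.5 replicate 2, the 1 library of the group with NDUFA4 at 419 CPM. It was 0 without untreated day 7.5 replicate 1, replicate 3 or untreated day 4.5 replicate 3, and 1 without untreated day 4.5 replicate 2.

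At day 4.5, subunits of complexes I, III, IV and V were lower in KO than in WT. In the KO libraries 15 of the 82 members were lower and 0 higher (edgeR, adjusted p under 0.05), against 3.74% of all 13797 genes called in either direction and 2.6% called lower. The members' median log2 fold change was -0.58 against -0.03 over all genes, and 81 of 82 lay below 0, also under both other scalings. The exception was UQCRHL, at 0.73 ± 0.48 (adjusted p = 0.416). At an unadjusted p under 0.05 there were 59 members, against 19.1% of all genes, and DESeq2 called 27, against 5.67%. The 15 were 6 of complex I, 3 of complex III, 3 of complex IV and 3 of complex V, and no complex II gene passed. For 4 members, ATP5MF, ATP5MG, NDUFV1 and ATP5ME, every KO library lay below every WT library, against 1.19% of all genes.

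In complex V, ATP5MF, a subunit of the membrane part (chromosome 7, 99448475 to 99466331), had 232 to 457 CPM (median 286) in WT and 122 to 197 CPM (median 177) in KO at day 4.5. It was lower by 1.04 ± 0.23 log2 units (edgeR, adjusted p = 0.00583) and stayed past the threshold in all 21 alternatives. ATP5MF overlaps the genes ATP5MF-PTCD1 and PTCD1 on its strand, and its counts may leave out reads of shared sequence. ATP5MC1 had 287 to 452 CPM (median 429) in WT and 139 to 351 CPM (median 219) in KO, a difference of -0.9 ± 0.19 (edgeR, adjusted p = 0.00295). A single KO library, cl4_R2, reached the WT range. ATP5ME was lower by 0.68 ± 0.18 log2 units (edgeR, adjusted p = 0.021). ATP5MC2 had 582 to 800 CPM in WT and 603 to 696 CPM in KO, a range inside that of WT.

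In complex I, NDUFA13, also known as the cell death regulator GRIM-19, had the largest difference among the called members. NDUFA13 had 63 to 186 CPM (median 77) in WT and 35 to 69.8 CPM (median 39.3) in KO, a difference of -1.24 ± 0.37 (edgeR, adjusted p = 0.0467). Its call was lost in 14 of the 21 alternatives, with adjusted p from 0.0241 to 0.702, and NDUFA13 overlaps YJEFN3 on the same strand. NDUFA2 (-0.94 ± 0.28, edgeR, adjusted p = 0.0444) lost its call in 11 of 21. NDUFV1 had 112 to 181 CPM (median 140) in WT and 59.6 to 104 CPM (median 92.7) in KO, a difference of -0.77 ± 0.18 (edgeR, adjusted p = 0.00881). NDUFB9 (-0.59) and NDUFB10 (-0.46) were also called lower (edgeR, adjusted p from 0.0196 to 0.0251).

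In complex III, UQCRC1 had 161 to 332 CPM (median 208) in WT and 102 to 183 CPM (median 151) in KO, a difference of -0.76 ± 0.18 (edgeR, adjusted p = 0.0105). UQCR11 (-0.54) and CYC1 (-0.52) were also called, with adjusted p of 0.0467 and 0.047 (edgeR). In complex IV, COX4I1 (-0.63 ± 0.17), COX6B1 (-0.6 ± 0.17) and COX5B (-0.54 ± 0.14) were called lower (edgeR, adjusted p = 0.0268, 0.04 and 0.0225). COX6A2 had the largest difference of any member, -2.24 ± 0.83, and did not pass (edgeR, adjusted p = 0.139). It had 0.659 to 40.3 CPM in WT and 0 to 13.7 CPM in KO, which overlap widely. In complex II, SDHA had 59.3 to 118 CPM in WT and 36.6 to 87.9 CPM in KO, a difference of -0.74 with an adjusted p of 0.056 (edgeR). SDHB, SDHC and SDHD also lay below 0 and did not pass.

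Within blocks the direction held. All 15 called members had a lower KO mean in each of blocks A, B and C. They were called from these same libraries, so this agreement was partly fixed by their choice and is no separate support. The same holds for called genes of the lists below. The KO libraries of blocks A and B at day 4.5 were both of clone cl4. Over the 82 members, 74 were lower in KO in block A (1 KO library against 2 WT), 63 in block B (1 against 2) and 73 in block C (4 against 2), with median differences of -0.49, -0.14 and -0.32 log2 CPM. A fit on block C libraries alone called 4 members, ATP5MC1, ATP5MF, COX6B1 and NDUFB9, and left a members' median of -0.36. The count of 15 depended on single libraries. It was 4 without WT_R1, 7 without WT_TU_R1, 9 without WT_TU_R2 and 39 without cl43_WT_UT of the WT group. It was 26 without cl4_R1, 8 without cl4_R3, 4 without cl46_R1 and 4 without cl51_R1 of the KO group. It was 23 without the 4 libraries low in NDUFA4, none of which is in these groups. A fit on the 12 libraries alone called only ATP5MF. The cardiomyocyte markers moved in the same direction on this day. Of the 12, 5 were lower and 0 higher in KO at day 4.5 (MYH7, MYL3, MYL7, ACTN2 and NPPA, edgeR), with a median of -1.17. The 5 were lower in KO within each block. Their summed level ran from 31012 to 61446 CPM (median 41234) in WT and from 16496 to 43511 CPM (median 30675) in KO, with no marker at 0 in either group. Their part in the lower subunit levels was not tested.

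**Figure D5:**
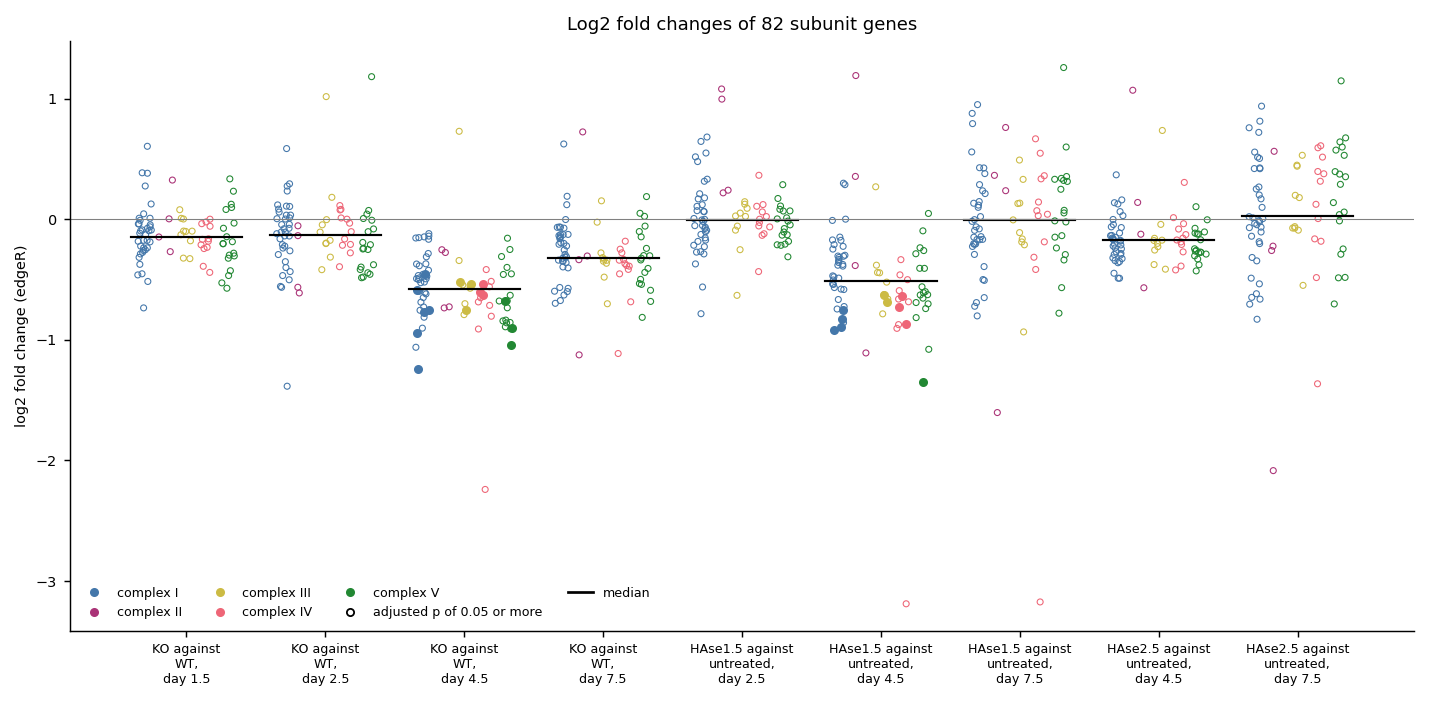
Log2 fold change (edgeR) of the 82 tested subunit genes in each comparison of KO with WT and of hyaluronidase with untreated cardioids, by day; each point is a gene, filled where the adjusted p is under 0.05, coloured by complex, and bars are medians. Day 4.5 holds all the calls, 15 lower in KO and 10 lower in HAse1.5.

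On the other days 0 members passed between KO and WT (edgeR). Over all genes, 4.28%, 10.5% and 5.53% were at an unadjusted p under 0.05 at days 1.5, 2.5 and 7.5. The medians were -0.15 at day 1.5, -0.13 at day 2.5 and -0.32 at day 7.5. The shares of all genes called were 0%, 0.993% and 0.348%. At an unadjusted p under 0.05 there were 2, 3 and 2 members, and DESeq2 called 0 on each of these days. At day 7.5, 21 of 82 members had all 3 KO libraries below all 3 WT libraries, against 7.72% of all genes, and 1 had them all above, against 9.11%. At day 7.5 WT held 1 library of block A and 2 of block B, and KO held 1 of block B and 2 of block C, so genotype and block are largely confounded there. Within block B, the 1 shared block, the members' median difference was -0.06 log2 CPM, with 54 members lower in KO and 28 higher. A test of any change in the KO effect over the 4 days called 0 members, against 0.674% of all genes, with 9 at an unadjusted p under 0.05 (7.65% of all genes), 2 by DESeq2 and 2 with the replicate name as a block. Being called at day 4.5 and not at another day does not by itself show a difference between days. The change in the KO effect from day 2.5 to day 4.5 passed for NDUFB10 alone, against 0.609% of all genes, and DESeq2 called 3, against 1.42%. Before adjustment other members also passed 0.05, among them NDUFS7, ATP5MC1, NDUFV1, CYC1 and COX5B, as did 8.52% of all genes. All members but SDHD (0.29) and NDUFB3 (0.32) had a change below 0. The share of all genes with a change below 0 is not given here. NDUFB10, a membrane-arm subunit of complex I (chromosome 16, 1959508 to 1961975), had 122 to 159 CPM (median 133) in WT and 150 to 187 CPM (median 172) in KO at day 2.5. At day 4.5 it had 136 to 178 CPM (median 154) in WT and 100.2 to 138 CPM (median 122) in KO. The KO effect changed by -0.73 ± 0.17 log2 units (edgeR, adjusted p = 0.0225). It did not pass without KO day 2.5 cl51, KO day 4.5 cl46 or KO day 4.5 cl51, when 0 members did. From day 4.5 to day 7.5, 0 members passed a change in the KO effect, against 0.159% of all genes. At an unadjusted p under 0.05 there were 2 members, against 4.73% of all genes, and DESeq2 called 0, against 0.254%.

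Hyaluronidase from day 1.5 was also followed by lower subunit levels at day 4.5. In HAse1.5 cardioids 10 of 82 members were lower and 0 higher than in untreated ones (edgeR, 12748 genes tested), against 3.48% of all genes called and 2.41% called lower. The members' median was -0.51 against 0.02 over all genes. At an unadjusted p under 0.05 there were 34 members, against 13.8% of all genes, and DESeq2 called 18, against 4.87%. In 46 members all 3 HAse1.5 libraries lay below all 3 untreated ones, against 8.87% of all genes, and in 2 they lay above, against 12.7%. Line by line, all 10 called members were lower in each of the 3 lines, though they were called from these same libraries. Over the 82 members, 74 were lower in TNNI1, 61 in WT and 70 in TNNT2. The median differences were unlike, at -0.79, -0.18 and -0.34 log2 CPM in the same order.

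ATP5MC1 had 375, 236 and 218 CPM in the untreated libraries, 68.3, 140 and 137 CPM in HAse1.5 and 235, 195 and 202 CPM in HAse2.5 at day 4.5. HAse1.5 lay below untreated in every line, by 1.35 ± 0.29 log2 units (edgeR, adjusted p = 0.00815). NDUFB9 had 431, 337 and 397 CPM without the enzyme, 171, 260 and 221 CPM in HAse1.5 and 305, 354 and 331 CPM in HAse2.5. Its difference of -0.92 ± 0.17 (edgeR, adjusted p = 0.00199) passed in all 13 alternatives. COX6B1 had 464, 347 and 362 CPM in the untreated libraries and 210, 253 and 217 CPM in HAse1.5, a difference of -0.87 ± 0.18 (edgeR, adjusted p = 0.00523). Neither gene had an HAse1.5 library inside the untreated range.

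The other called members were NDUFS6 (-0.89 ± 0.25), NDUFB2 (-0.82) and NDUFV3 (-0.76) of complex I, UQCRC1 (-0.69) and UQCRH (-0.62) of complex III, and COX7C (-0.72) and COX5B (-0.64) of complex IV, with adjusted p from 0.00918 to 0.0454 (edgeR). By complex, 4 genes were of complex I, 0 of II, 2 of III, 3 of IV and 1 of V. SDHA had 73.7, 86.1 and 72.3 CPM in the untreated libraries and 33.5, 44.9 and 35.5 CPM in HAse1.5, which do not overlap, and its difference of -1.11 ± 0.39 did not pass (edgeR, adjusted p = 0.143). COX6A2 had 10.9, 1.78 and 0.695 CPM in the untreated libraries and 0.621, 0.864 and 0 CPM in HAse1.5. At day 7.5 COX6A2 had 33, 8.93 and 29.7 CPM without the enzyme, 6.52, 2.16 and 0 CPM in HAse1.5 and 24.9, 0.671 and 2.62 CPM in HAse2.5. All HAse1.5 libraries lay below all untreated ones on that day, and the difference of -3.17 ± 1.26 did not pass (edgeR, adjusted p = 0.204).

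The count of 10 depended on single libraries here too. Leaving out the untreated library of TNNI1 gave 1 call and that of WT 5 calls. Leaving out the HAse1.5 library of TNNI1 gave 2 calls and that of TNNT2 gave 4 calls. It was 6 with library totals as the scaling and 23 without the 4 libraries low in NDUFA4, none of which is from day 4.5. Of the 12 cardiomyocyte markers, 8 were lower and 0 higher in HAse1.5, with a median of -2.66, and MYL3 and MYL7 had the largest falls among the 8. Their summed level ran from 24885 to 49163 CPM without the enzyme, 5295 to 19805 CPM in HAse1.5 and 18674 to 33350 CPM in HAse2.5, and NPPA was at 0 in all HAse1.5 libraries. Their part in the lower subunit levels was not tested. Markers of other cell types were followed on the same day. Of the tested markers, 0 of 7 endoderm, 0 of 2 endothelial, 0 of 2 epicardial or fibroblast and 0 of 4 primitive streak genes were called in KO, and 2 of 6 pluripotent genes were higher and 1 lower (edgeR). In HAse1.5, 1 of 5 endoderm genes (APOA1) and 1 of 3 epicardial or fibroblast genes (WT1) were lower, and 0 of 3 endothelial, 0 of 4 pluripotent and 0 of 3 primitive streak genes were called. The summed levels of 4 of these lists did not overlap between HAse1.5 and untreated libraries. Pluripotent markers ran from 86.4 to 97.8 CPM in HAse1.5 against 43.5 to 70.2 CPM, and endothelial markers from 170 to 188 CPM against 125 to 160 CPM. Endoderm markers ran from 19 to 56.5 CPM in HAse1.5 against 64.8 to 216 CPM, and epicardial or fibroblast markers from 490 to 652 CPM against 717 to 1561 CPM. In KO and WT at day 4.5 the summed levels of all 5 lists overlapped. The part of these lists in the subunit results was not tested.

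The KO and enzyme comparisons at day 4.5 share no library and can be set side by side. ATP5MC1, COX5B, COX6B1, NDUFB9 and UQCRC1 were called lower both in KO against WT and in HAse1.5 against untreated. These 5 were 33.3% of the 15 called in KO and 50% of the 10 called in HAse1.5. Over all 12566 genes tested in both arms, 117 were called lower in both, 32.9% of the 356 lower in KO and 38.2% of the 306 lower in HAse1.5.

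HAse2.5, the later start of the enzyme, was compared in the same way. HAse2.5 against untreated called 0 members at day 4.5 (edgeR), with a median of -0.18, 3 at an unadjusted p under 0.05 (7.02% of all genes), 0 by DESeq2 and 0.22% of all genes called. HAse1.5 set directly against HAse2.5 at day 4.5 called 0 members, with a median of -0.33, 16 at an unadjusted p under 0.05 (9.65% of all genes), 4 by DESeq2 and 0.361% of all genes called. In 37 members all HAse1.5 libraries lay below all HAse2.5 libraries, against 7.26% of all genes. At day 2.5, 1 day after the enzyme was first given, HAse1.5 called 0 members, with 1 at an unadjusted p under 0.05 (9.22% of all genes), 0 by DESeq2 and 1.15% of all genes called. Over all genes, 16.8%, 13.5% and 5.64% were at an unadjusted p under 0.05 in the 3 comparisons of day 7.5 that follow. At day 7.5, 0 members passed in HAse1.5 against untreated (9 at an unadjusted p under 0.05, 1 by DESeq2, 1 with the line as a block, 3.33% of all genes called), in HAse2.5 against untreated (12, 0 and 0.659%) or in HAse1.5 against HAse2.5 (2, 0 and 0.00784%). The summed cardiomyocyte markers at day 7.5 ran from 31791 to 36858.5 CPM in HAse1.5 and from 65165 to 78791 CPM in untreated libraries. In HAse2.5 they ran from 40395 to 65936 CPM. The members' median log2 fold changes against untreated at day 7.5 were -0.005 in HAse1.5 and 0.03 in HAse2.5. The part of the markers was not tested. The change in the HAse1.5 effect from day 2.5 to day 4.5 passed for 0 members, with 18 at an unadjusted p under 0.05 (9.02% of all genes), 0 by DESeq2 and 0.706% of all genes called. From day 4.5 to day 7.5 it passed for 0, with 17 at an unadjusted p under 0.05 (8.28% of all genes), 0 by DESeq2 and 0.0157% of all genes called.

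The other genes of the pathway were followed by lists. Of 13 subunits encoded in mitochondrial DNA, 12 were tested. Over the step from day 2.5 to day 4.5, 0 of these rose or fell in WT (edgeR), while 0 rose and 2 fell in KO and 0 rose and 5 fell in untreated cardioids. In KO against WT at day 4.5, MT-ND1, MT-ND3 and MT-ATP6 were lower, by 1.2, 0.93 and 1.05 log2 units (edgeR, adjusted p = 0.0212, 0.0486 and 0.00642), and 0 were higher. The 3 were lower within each block, with a difference for MT-ND1 of -0.15 log2 CPM in block A. The median of the 12 was -0.55. In HAse1.5 against untreated 0 passed in either direction. Of 50 assembly factors tested, 12 rose and 0 fell in WT over the step, and in KO 5 rose and 4 fell. COX14, a factor of complex IV assembly, was the 1 assembly factor lower in KO at day 4.5 (-0.81 ± 0.19, edgeR, adjusted p = 0.0111). COX14 differed by -0.94, -0.03 and -0.69 log2 CPM within blocks A, B and C. With 48 tested, 0 were called in HAse1.5.

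Of 17 regulators of mitochondrial biogenesis, 5 rose and 0 fell in WT from day 2.5 to day 4.5. They were PPARGC1A, a coactivator of mitochondrial gene programs (7.01 ± 0.43), PPARGC1B (2.4 ± 0.44), ESRRB (4.56 ± 0.72), ESRRG (2.94 ± 0.39) and PPARA (1.99 ± 0.34), with adjusted p of 3.03e-05 or less (edgeR). In KO at day 4.5, PPARGC1B (-1.46 ± 0.42) and PPARD (-1.21 ± 0.35) were lower than in WT (edgeR, adjusted p = 0.0399 and 0.041). PPARD was lower within each block, and PPARGC1B was lower in blocks B and C and 0.12 log2 CPM higher in block A. Of 13 electron and energy carriers tested, 8 rose and 0 fell in the WT step. SLC25A4, the ADP/ATP exchanger of heart and muscle, rose by 3.95 ± 0.43 and the muscle mitochondrial creatine kinase CKMT2 by 6.16 ± 1.17 (edgeR, adjusted p = 1.05e-09 and 9.39e-05). CYCS, cytochrome c, was lower in KO at day 4.5 by 0.78 ± 0.2 and in HAse1.5 by 0.87 ± 0.18 log2 units (edgeR, adjusted p = 0.0212 and 0.00601). ETFB, SLC25A6 and VDAC3 were also lower in KO, and SLC25A4 in HAse1.5. CYCS, ETFB, SLC25A6 and VDAC3 were lower in KO within each block.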

How the data were processed

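Total RNA of pooled cardioids was read as 3′ end libraries (QuantSeq forward). The authors deposited whole-number counts per gene in 1 table. The submitters' processing notes name featureCounts, Subread 1.6.2 and the hg38 build. How multi-mapping or overlapping reads were counted is not given in the sources used here, and 46 members have pseudogenes and 21 overlap a gene on the same strand. Members were matched by gene ID to GENCODE 29 types and current symbols. The table has 4 columns of no listed sample, which were not used.

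The deposited counts were tested with edgeR 4.0.16 (quasi-likelihood test, TMM scaling, filter on low counts with a minimum of 10, robust fit, R 4.3.3), 1 fit for each arm with 1 mean per group and no covariate. P-values were adjusted by Benjamini-Hochberg across every gene in a fit, and 0.05 was the threshold. All tests were two-sided, and ± after a log2 fold change is its standard error. Fold changes of the TMM-scaled fit and CPM from library totals are on different scales. Isoform ratios, log2 of CPM + 1 over CPM + 1, were compared by exact permutation tests over libraries (scipy 1.17.1). The procedure was tested on simulated data. Alternatives were RLE factors, library totals, no filter, DESeq2 1.42.0, blocks, fits on the compared groups only and leaving out each library. Fits without block A, on block C alone or without the 4 libraries low in NDUFA4, and the changes in effect between days, were added after seeing the data.

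The members and lists were chosen with earlier results of these data known. Genes named were the 3 highest and 3 lowest called members of each comparison and isoform partners with ATP5IF1. The SDH genes, CYC1 and members not passing the filter were also named. So were, in each complex, the members with the highest mean log2 CPM, the lowest mean log2 CPM and the widest span of group means. Others were named after their values were seen. The values of 1 member are not reported here. The lists were markers of cardiomyocytes, endoderm, endothelium, epicardium or fibroblasts, pluripotent cells and primitive streak, and mitochondrially encoded subunits, assembly factors, biogenesis regulators and carriers. In the enzyme arm a replicate number is the same cell line, and so pairs samples. The deviations of same-line libraries correlated from -0.0868 to 0.423, over 0.1 in 14 of 21 pairs. Across days of the genotype arm, libraries of the same name correlated from -0.16 to 0.726, over 0.1 in 38 of 51 pairs.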

Additional observations from a re-analysis of the deposited data

Results flagged for a closer look

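Of 78 groups of library values checked, 7 held a library far from the others, and chance gives about 1 in 20. In KO at day 1.5, the library cl4_R1 had 1.84% of its counts on the members, with the nearest other library at 1.28%. In the same group cl14_R1, 1 of the 4 libraries low in NDUFA4, had a median over the tested members of 6.35 log2 CPM against 6.77 in the nearest library. That library was also far below the others for ATP5MC2 (7.47 against 8.5 log2 CPM), ATP5MC3 (7.26 against 8.61) and COX6A1 (5.26 against 6.36). ATP5MC2 in KO at day 2.5 was 9.74 log2 CPM in cl4_R1, with the nearest library at 9.29. SDHA in WT at day 4.5 was 5.92 log2 CPM in cl43_WT_UT, with the nearest library at 6.62. The count of members lower in KO at day 4.5 was 39 without that library.

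The KO effect on NDUFB10 differed between day 2.5 and day 4.5, by -0.73 log2 units (SE 0.17, edgeR, adjusted p = 0.0225). This contrast was added after seeing the data, and its call was lost in 6 of 33 alternatives, with adjusted p up to 0.415. In the planned test of the KO effect over days NDUFB10 did not pass (edgeR, adjusted p = 0.0746).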

How the results depend on the processing

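No named call changed sign in any alternative run. Members' medians near 0 did change sign. With library totals they went from -0.08 to 0.13 in the WT step from day 1.5 to day 2.5, where 1 higher and 4 lower calls became 12 higher and 0 lower, and from -0.03 to 0.17 in the same KO step. The median of KO against WT at day 2.5 went from -0.13 to 0.02 with the library-number run as a replicate block. The rise of members in WT from day 2.5 to day 4.5 stayed between 44 and 60 calls, and the levels and isoform ratios gave the same verdicts. Ratio tests of 3 against 3 libraries could not pass in any run. Of 34 calls of single genes, 12 held in every alternative and 22 were lost in at least 1. The cause of the changes below was not tested. Counts are members called, in either direction.

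For KO against WT at day 4.5 the count of 15 became 3 without the filter, 30 with the library-number run as a replicate block, 4 on block C alone, 26 without block A, 23 without the 4 libraries low in NDUFA4, 1 on the compared groups alone and 27 by DESeq2, and ranged from 4 to 39 with each library left out. The change in the KO effect from day 2.5 to day 4.5 (1) became 0 without the filter, on block C alone and on the compared groups alone, 7 with the library-number replicate block and without block A, and 3 by DESeq2, and ranged from 0 to 3. The KO effect over days (0) became 2 with the replicate block, without block A and by DESeq2, and ranged from 0 to 1.

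The WT step from day 1.5 to day 2.5 (5) became 12 with library totals, 1 without the filter, 14 with the replicate block, 10 without block A and 2 on the compared groups alone, and ranged from 0 to 7. The same KO step (9) became 3 without the filter, 18 with the replicate block and 20 without block A. From day 4.5 to day 7.5 the WT count (0) became 2 with the replicate block. The KO count (0) became 1 with RLE factors, 2 with the replicate block, 12 without block A, 4 on the compared groups alone and 3 by DESeq2, and ranged from 0 to 2. The KO step from day 2.5 to day 4.5 (26) ranged from 20 to 28, and from 18 to 39 over all its alternatives.

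For HAse1.5 against untreated at day 4.5 the count of 10 became 6 with library totals, 23 without the 4 low libraries and 18 by DESeq2, and ranged from 1 to 11. At day 7.5 (0) it became 3 without the filter and 1 with the line as replicate block, without the low libraries and by DESeq2, and ranged from 0 to 2. HAse2.5 at day 7.5 (0) became 2 without the filter and ranged from 0 to 2. HAse1.5 against HAse2.5 at day 4.5 (0) became 1 without the filter and without the low libraries and 4 by DESeq2, and ranged from 0 to 3. The change in the HAse1.5 effect from day 2.5 to day 4.5 (0) became 1 without the filter. The untreated step from day 2.5 to day 4.5 (23) became 38 without the low libraries and 39 on the compared groups alone, and ranged from 8 to 19. From day 4.5 to day 7.5 (3) it became 10 without the filter, 5 with the line replicate block, 1 without the low libraries and 8 by DESeq2, and ranged from 0 to 28. The line block moved no other count of calls by over 1.5 times. Low counts limit SDHD, UQCRHL and ATP5MGL, with at most 30, 25 and 30 counts in a library. Libraries of the same run and day but the other genotype had deviations correlated over 0.1 in 27 of 37 pairs (-0.0743 to 0.798), and the labels do not say that a run marks a shared batch.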
